A study of Mus musculus with 5 samples.

Results

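The stretch between Nectin3 and Dppa4 on mouse chromosome 16 was followed in contacts with a bait in the neighbouring Dppa2/4 domain, on both alleles of hybrid embryonic stem cells. It runs over chr16:46550001-48280000 (mm10), upstream of the bait, where upstream means lower coordinates. Its windows are set by position, from one coordinate to another, and it holds 346 windows of 5 kb, out of 19632 on chromosome 16 and 545079 in the whole table. The samples are 2 clones of a Cas/129 hybrid mouse embryonic stem cell line, A6 and E2, which carry a 129 chromosome and a CAST (Mus castaneus) chromosome. Both clones were grown in 2i plus LIF, and both were edited with CRISPR to delete 3 labelled intervals downstream of the stretch, at 48308399 to 48311882, 48396806 to 48437301 and 48581359 to 48620367. Each clone gave 1 4C-seq library, which the authors split by SNPs into a column for 129 and one for CAST, so the comparison is between alleles within a clone. Windows wholly inside the second interval held 6 reads in A6 and 8 in E2 on 129, against 7361 and 13326 on CAST, and those inside the third held 1 and 5 on 129, against 2519 and 7039 on CAST. The first interval held no whole window. The 129 chromosome is thus the one whose reads are nearly missing, and deletion and strain cannot be told apart here, because both clones carry the deletions and unedited hybrid cells were not analysed here. The clones are the replicates (n = 2), and the labels do not say how separately they were derived, so the spread between them may be technical.

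4C-seq takes 1 site, the bait, and counts which other fragments were ligated to it after crosslinking, cutting and ligation. Contacts fall steeply with distance along the chromosome, and a stretch with few genes still gathers many reads if it lies near the bait. The Dppa2/4 domain is known in mouse embryonic stem cells for early replication that turns late on differentiation, and gene deserts are often late replicating. Dppa4 and Dppa2 encode nuclear proteins of pluripotent cells, and Nectin3 encodes a cell adhesion molecule. The study is about cis elements behind the time and place of DNA replication, and the allele comparison puts contacts of the deleted chromosome beside those of its CAST partner.

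The bait primers are shown because the viewpoint is what every value refers to. The labels list the following pair for these samples, while the extract protocol names a different pair that anneals to bacterial vector sequence, and which pair applies could not be settled here. In the listed pair, capitals mark the first letters of the HindIII recognition site AAGCTT at the end of the forward primer:
bait forward primer: tttgggattttggagtgAAGC
bait reverse primer: ctgctggacttgtcaactgaa
The table has no windows from 48320001 to 48370000, and the centre of this 50 kb gap, at 48345000, was taken as the bait position. The windows of the stretch then lie between 65 kb and 1795 kb from it. Without a genome sequence, the primers could not be placed on the chromosome.

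The stretch held 10 annotated genes (RefSeq, GRCm38.p6, the same build as mm10), which cover 2.86% of its bases. They are 7 pseudogenes, 1 snRNA (Gm24651), 1 lncRNA (6430553K19Rik) and 1 predicted protein-coding gene (Gm52257). Nectin3 ends 51.5 kb before the stretch and Dppa4 starts 3.74 kb after it. The start regions of the 2 genes with an entry among the RefSeq promoters, 250 bases before to 50 after the start, are shown because their windows lie at opposite ends of the read counts described below. The first belongs to the window with the most 129 reads of the stretch over both clones, which E2 puts first and A6 does not (chr16:48158450-48158749, minus strand) and the second to a window with no reads on either allele (chr16:48057389-48057688, plus strand):
6430553K19Rik: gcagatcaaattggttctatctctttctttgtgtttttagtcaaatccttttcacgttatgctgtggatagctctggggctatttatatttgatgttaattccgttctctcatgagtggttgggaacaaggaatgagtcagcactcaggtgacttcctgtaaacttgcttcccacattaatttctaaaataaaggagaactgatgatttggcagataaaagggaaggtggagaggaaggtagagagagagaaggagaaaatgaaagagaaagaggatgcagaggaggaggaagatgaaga
Gm52257: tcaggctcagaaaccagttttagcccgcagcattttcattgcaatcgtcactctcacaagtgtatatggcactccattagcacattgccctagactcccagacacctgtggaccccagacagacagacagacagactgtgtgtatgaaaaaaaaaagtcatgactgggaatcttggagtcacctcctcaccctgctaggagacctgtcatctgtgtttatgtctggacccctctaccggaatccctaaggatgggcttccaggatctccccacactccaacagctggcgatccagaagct
Neither holds the letters AAGCTT, which read the same on both strands. They occur in 7.45% of the 32851 promoters of the same length in the table.

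The stretch took a larger part of the chromosome's signal on 129 than on CAST in both clones. Its 346 windows are 1.76% of those on chromosome 16. They held 18.3% of the deposited chromosome 16 signal in A6 and 18.4% in E2 on 129, against 11.2% and 11.6% on CAST. The means were 18.4% ± 0.09 on 129 and 11.4% ± 0.28 on CAST (SD, n = 2 clones). The mean deposited level was 126 RPM in A6 and 130.2 RPM in E2 on 129, against 76.5 and 80.6 RPM on CAST. Windows of chromosome 16 over 5 Mb from the bait averaged 5.59 and 5.46 RPM on 129, against 5.70 and 5.28 RPM on CAST. RPM are normalized to each allele column's own total, as the authors made them, so a ratio of alleles compares shares of 2 columns.

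The deposited values are running means over 30 windows, 150 kb in all, and undoing them gave whole reads. Of 466850 (A6) and 591918 (E2) chromosome 16 reads on 129, 86911 and 111061 lay in the stretch, against 36216 of 311368 and 48366 of 386984 on CAST. These are 18.6% (95% Wilson interval 18.5 to 18.7%) and 18.8% (18.7 to 18.9%) on 129, against 11.6% (11.5 to 11.7%) and 12.5% (12.4 to 12.6%) on CAST. The intervals cover counting error only and take each read as a separate ligation. Reads that PCR copied cannot be told from separate ligations, so the intervals may be too narrow. They do not overlap between the alleles in either clone, but they do not measure the spread between clones.

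From the mean deposited RPM, the whole stretch had a log2 ratio of 129 over CAST of 0.72 for A6 and 0.69 for E2. Its mean was 0.71 ± 0.02 (SD, n = 2), a 1.63-fold higher level on 129. With 2 clones, the smallest two-sided exact permutation p that turning the signs of the clones can give is 0.5, so the ratios of whole stretches are given as values without a test. With the running mean undone the ratio was 0.65 ± 0.06. Over the 76 windows where each allele had at least 10 reads (A6 and E2 added together) it was 0.53 in A6 and 0.37 in E2, mean 0.45 ± 0.11. When each column was scaled to its chromosome 16 total without the deleted intervals, which hold reads on CAST and almost none on 129, the ratio was 0.53 ± 0.09 with the running mean undone.

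The level climbed towards the bait on both alleles, with a trough in the middle of the stretch. The highest 50-kb bin was the last, at 48.25 to 48.28 Mb, with 471 RPM in A6 and 507 RPM in E2 on 129, against 309 and 400 RPM on CAST. The lowest bins on 129 were at 47.20 Mb in A6, with 26.3 RPM, and at 47.60 Mb in E2, with 13.8 RPM. On CAST the lowest bin was at 47.15 Mb in both clones, with 8.26 RPM in A6 and 5.86 RPM in E2, close to the CAST level over 5 Mb away. Between log10 RPM and log10 distance the slope over the 35 bins was -0.83 in A6 and -0.87 in E2 on 129, against -0.86 and -0.99 on CAST. These slopes describe neighbouring bins whose running means share windows.

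**Figure D1:**
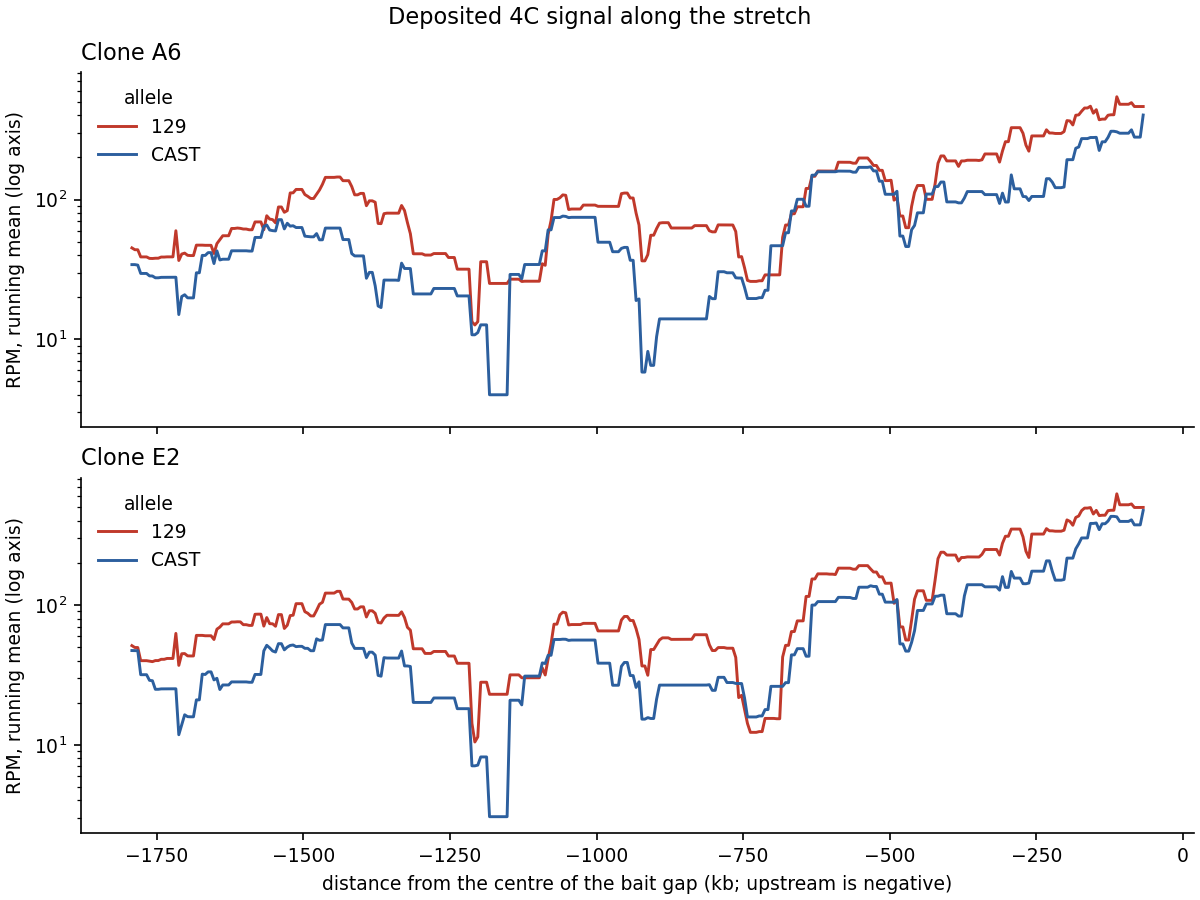
Deposited RPM per 5-kb window (log axis) against distance upstream of the bait, per clone and allele, with 129 listed before CAST. Both alleles climbed towards the bait, and 129 stood above CAST over most of the stretch in both clones, for example at 471 and 507 RPM against 309 and 400 RPM in the last bin.

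Along the stretch the excess on 129 was present in all 4 segments. From 46.55 to 47.00 Mb the log2 ratio was 0.88 ± 0.04, and from 47.00 to 47.50 Mb it was 0.84 ± 0.01 (SD, n = 2). From 47.50 to 48.00 Mb it was 0.52 ± 0.19, and from 48.00 to 48.28 Mb, next to the domain of the bait, it was 0.74 ± 0.18. Over windows with 10 or more reads on each allele the 4 ratios were 0.76 ± 0.05, 0.64 ± 0.02, 0.50 ± 0.13 and 0.31 ± 0.26. Each of these 8 mean ratios was above 0 in both clones.

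Bin by bin, 129 was higher in both clones in 32 of the 35 bins, CAST in none, and the clones differed in 3. Within 5 Mb of the bait, stretch included, 57.1% of the 198 bins were higher on 129 in both clones. The bins were tested with limma on log2(RPM + 5.87), where the pseudocount is 0.25 times the level of the median bin, clone was a block, and Benjamini-Hochberg adjustment ran over the 198 bins. On this scale fold changes of low bins are understated. In the stretch 19 of 35 bins were higher on 129 at an adjusted p of 0.05 and 0 were lower. At an unadjusted 0.05, 23 of the 35 passed, all higher on 129, beside 101 of the 198 bins in either direction. A limma fit over all 1962 bins of chromosome 16 gives bins more of their own spread. It called 0 of the 35 and 0.0% of the 1962. At an unadjusted 0.05, 18 of the 35 passed there, all higher on 129, beside 455 of the 1962 in either direction. Of the 198 bins, 31.8% were called higher on 129 and 11.6% lower, and of the 163 bins outside the stretch 27.0% and 14.1%. The median log2 difference was 0.67 in the stretch and 0.23 outside it. Neighbouring bins share up to 150 kb of reads through the running mean, so the 19 calls are not 19 separate observations.

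The called bins formed 4 runs. The run farthest from the bait, at 46.60 to 46.75 Mb, had 3 bins with a mean log2 difference of 0.77, and the longest, at 46.80 to 47.20 Mb, had 8 bins with 0.95. The steepest, at 47.35 to 47.55 Mb, had 4 bins with 1.26, and the run at 47.95 to 48.15 Mb had 4 bins with 1.00. The bins between 47.55 and 47.95 Mb and the bins beyond 48.15 Mb, nearest the bait, were not called in this fit of the deposited values.

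The bin at 47.40 to 47.45 Mb had the largest limma log2 difference of the stretch on the deposited values. It stood at 63.7 RPM in A6 and 53.2 RPM in E2 on 129, against 15.5 and 21.5 RPM on CAST. Both 129 values lay above both CAST values, and limma gave a log2 difference of 1.41 (SE 0.28, adjusted p = 3.2e-05, Benjamini-Hochberg). The SE is not the bin's own, because limma estimated 1 common spread for all bins. Without the pseudocount the bin's deposited log2 ratios were 2.04 in A6 and 1.31 in E2, beside 1.73 and 2.08 for the bin at 47.15 Mb. None of the bin's 10 windows held a read of its own on either allele in either clone. The bin lies within the longest run of empty windows of the stretch, 60 kb from 47395001 to 47455000. A count of 0 allows up to 3 reads, a mean of 0.153 RPM in A6 and 0.124 RPM in E2 on 129, against 0.227 and 0.186 RPM on CAST over the bin. Its deposited values are therefore those of its neighbours.

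The bin after it, at 47.45 to 47.50 Mb, stood at 64.8 and 57.1 RPM on 129, against 14.0 and 26.7 RPM on CAST (limma log2 1.39, Benjamini-Hochberg adjusted p = 3.8e-05). It held reads of its own, 1298 in A6 and 1315 in E2 on 129, against 145 and 709 on CAST. The bin at 47.50 to 47.55 Mb, which contains the snRNA gene Gm24651, had 62.8 and 56.6 RPM on 129, against 15.7 and 26.3 RPM on CAST (limma log2 1.31, Benjamini-Hochberg adjusted p = 8.5e-05). Its own reads were 2382 and 2811 on 129, against 410 and 584 on CAST. In both bins 129 was higher in both clones, deposited and in own reads. The tests on own reads did not all keep the calls. edgeR's Benjamini-Hochberg adjusted p was 0.0753 with column totals and 0.328 with TMM for the bin at 47.45 Mb, and 0.00184 and 0.054 for the bin at 47.50 Mb.

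The bin at 47.15 to 47.20 Mb is the CAST trough. It had 27.5 RPM in A6 and 24.8 RPM in E2 on 129, against 8.26 and 5.86 RPM on CAST (limma log2 1.31, Benjamini-Hochberg adjusted p = 8.5e-05). Its own reads were few, 51 and 286 on 129, against 4 and 20 on CAST, and edgeR on them gave a Benjamini-Hochberg adjusted p of 0.0343 with column totals and 0.0769 with TMM. The bin at 46.95 to 47.00 Mb had 83.6 and 83.4 RPM on 129, against 25.2 and 40.7 RPM on CAST (limma log2 1.23, Benjamini-Hochberg adjusted p = 0.00023). In its own reads, 992 and 1527 on 129, against 435 and 786 on CAST, the log2 ratio was smaller, at 0.62 for A6 and 0.37 for E2, which edgeR with column totals did not call (Benjamini-Hochberg adjusted p = 0.563) and edgeR with TMM scaling put at -0.08, the other way.

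The 5 called bins with the smallest differences lie between 46.60 and 47.15 Mb, and their own reads ran from a near absence on CAST to an excess on CAST. The bin at 46.65 to 46.70 Mb had 45.2 and 57.3 RPM on 129, against 34.0 and 26.3 RPM on CAST (limma log2 0.66, Benjamini-Hochberg adjusted p = 0.0472). Its own reads were 1341 and 1899 on 129, against 10 and 10 on CAST, so its deposited difference is far smaller than that of the reads within it. The bin at 46.80 to 46.85 Mb had 103 and 87.5 RPM on 129, against 64.6 and 50.7 RPM on CAST (limma log2 0.67, Benjamini-Hochberg adjusted p = 0.0446), with near equal own reads after scaling (log2 ratios of 0.00 and 0.16). At 47.05 to 47.10 Mb, 40.3 and 45.4 RPM on 129, against 22.5 and 21.2 RPM on CAST (limma log2 0.81, Benjamini-Hochberg adjusted p = 0.016), went with own log2 ratios of 0.70 and 1.02. The bins at 46.60 and 47.10 Mb, with limma log2 differences of 0.77 and 0.68 (Benjamini-Hochberg adjusted p = 0.0226 and 0.0424), had own RPM that went the other way, by log2 ratios of -0.68 and -0.78 at 46.60 Mb and of -0.99 and -0.04 at 47.10 Mb, where E2 was near 0.

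The ends of the stretch did not pass the test. The first bin, at 46.55 to 46.60 Mb, had 40.1 and 42.9 RPM on 129, against 30.3 and 34.4 RPM on CAST (limma log2 0.31, Benjamini-Hochberg adjusted p = 0.366). The last bin, nearest Dppa4, had a limma log2 of 0.47 (Benjamini-Hochberg adjusted p = 0.177), and its 2 clones went apart in own reads. A6 had 6023 reads on 129 against 2447 on CAST, a log2 ratio of 0.73, and E2 had 8373 on 129 against 7884 on CAST, a log2 ratio of -0.50 after scaling to the column totals. Its 6 windows are also the ones whose running means reach across the bait gap.

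Undoing the running mean left the direction in place for most bins, and not for all. Of the 33 bins with a ratio in both clones, 129 was higher in A6 and E2 alike in 23, CAST in 4, and the clones split in 6, beside 46.9% of bins within 5 Mb higher on 129 in both. Of the 19 called bins, 14 went the same way in both clones in own RPM, 2 went the opposite way in both, in 2 the clones differed and 1 had no reads. The 2 bins that went the opposite way were those at 46.60 and 47.10 Mb. The bin at 46.60 Mb had 491 and 424 own reads on 129, against 530 and 485 on CAST, and the bin at 47.10 Mb had 59 and 108 on 129, against 79 and 74 on CAST, so in E2 its direction comes from scaling to the column totals. The bins just before them, at 46.55 and 47.05 Mb, had 1686 and 2228, and 1758 and 2389 reads on 129, against 562 and 722, and 727 and 783 on CAST.

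limma on the RPM with the running mean undone called 11 bins of the stretch higher on 129 and 1 lower, where 24.4% of the 193 bins within 5 Mb were called higher and 11.9% lower. edgeR's quasi-likelihood test on the recovered reads, with column totals as library sizes, called 12 higher and 1 lower (24.9% and 11.9% of the 193 bins), and 8 of these 12 were among the 19 limma calls. With TMM scaling, which moved the median log2 of all bins to -0.13 from 0.45, edgeR called 7 higher and 1 lower (14.5% and 15.0%), and 4 of the 7 were among the 19. The bin at 48.05 Mb had the largest edgeR log2 of the stretch, 8.58 with column totals (Benjamini-Hochberg adjusted p = 6.0e-16). It held 1498 and 2485 reads on 129, against 2 and 5 on CAST. The bin at 47.55 Mb, not called on deposited values, had 147 and 328, against 0 and 1 (log2 8.15, adjusted p = 3.5e-05). Both were picked after their values were seen. Relative to the bins outside, the stretch stood 0.67 higher in median log2 under both edgeR scalings, and 0.45 higher with limma on the deposited values.

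The bin called lower was at 47.25 to 47.30 Mb in each of these 3 fits, and it was named after its values were seen. It held 114 reads in A6 and 630 in E2 on 129, against 1279 and 1426 on CAST, and edgeR with column totals gave a log2 difference of -2.89 (Benjamini-Hochberg adjusted p = 6.2e-05). Its deposited values went the other way, 79.9 and 64.1 RPM on 129, against 65.7 and 50.3 RPM on CAST. In the smoothed profile this bin, with fewer reads on 129 in both clones, appears as one with more.

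**Figure D2:**
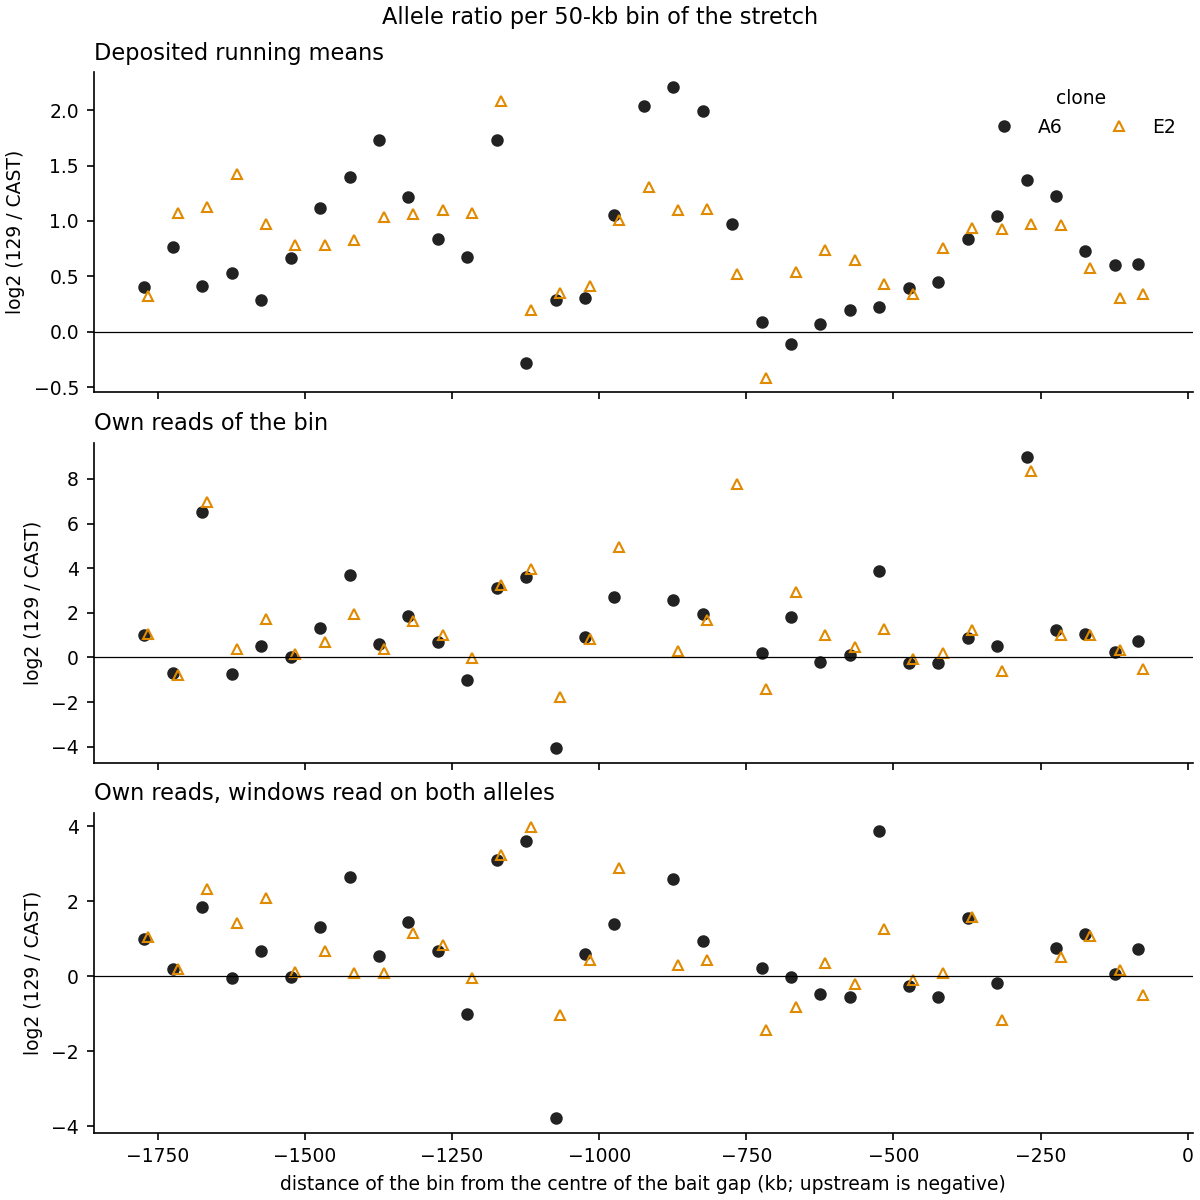
log2 ratio of 129 over CAST for each 50-kb bin against distance upstream of the bait, per clone, from deposited RPM, from own reads and from windows with 10 or more reads on each allele. The deposited ratios were above 0 in both clones in 32 of 35 bins, while own reads gave ratios of 3.60 and 3.98 in the bin at 47.20 Mb and of -4.06 and -1.77 in the next, at 47.25 Mb.

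The reads of the stretch came from few windows. Of 346 windows, 120 held reads on any allele in any clone and 226 held none. The 10 fullest windows held 37.7% of the reads of the stretch in A6 and 40.6% in E2 on 129, against 46.4% and 49.7% on CAST. Across windows with reads, the clones ranked them much alike, with a Spearman rho of 0.93 on 129 (n = 114) and 0.89 on CAST (n = 96), given as descriptions because windows of a library share its fragments and depth. The log2 ratio of the alleles followed less closely between the clones (rho 0.66, n = 75 windows read on both alleles).

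**Figure D3:**
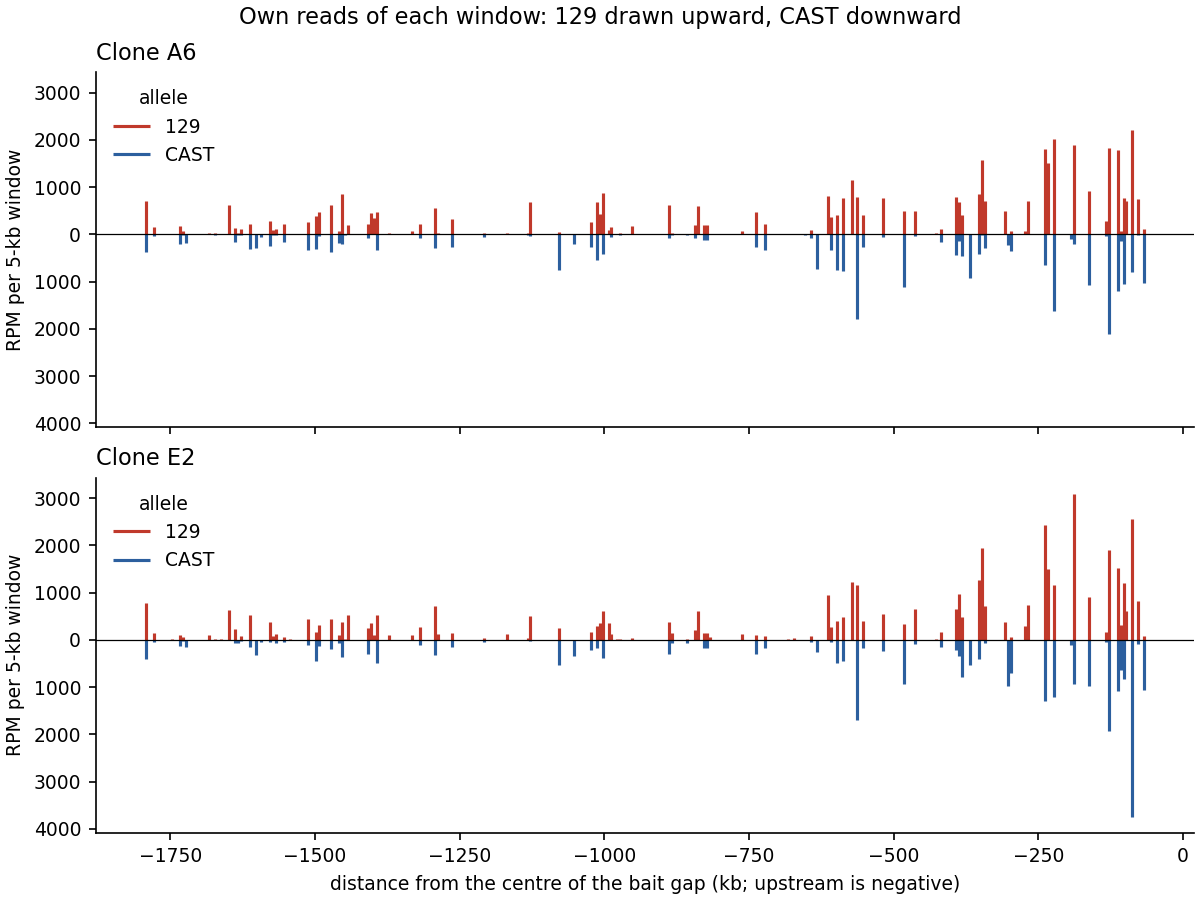
Own RPM per 5-kb window with the running mean undone, against distance upstream of the bait, drawn upwards for 129 and downwards for CAST, per clone. Most windows were empty, and single tall windows such as 48155001, with 1899 and 3088 RPM on 129 against 206 and 931 RPM on CAST, carried much of the signal.

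Averaged over the clones, the window with the highest 129 level, 48155001 to 48160000, holds the start of 6430553K19Rik printed above. It had 3722 reads in A6 and 7483 in E2 on 129, against 272 and 1502 on CAST, and ranked 17th on CAST. It was first on 129 in E2, while in A6 48255001 (4332 reads) and 48120001 (3961 reads) were fuller. On the RPM scale this is a log2 ratio of 3.20 for A6 and 1.73 for E2. By the same average, the window with the highest CAST level, 48255001 to 48260000, was the second on 129, with 4332 and 6192 reads on 129, against 1056 and 6041 on CAST. It leads on CAST through E2, since in A6 48215001 (2776 reads on CAST) and others were fuller. Its clones went apart, with log2 ratios of 1.47 (A6) and -0.55 (E2). Windows shared by both alleles at near equal level also occurred, such as 48215001 to 48220000 with the pseudogene Gm7204, at 3584 and 4608 reads on 129, against 2776 and 3115 on CAST (log2 -0.20 and -0.02). The window at 47995001 to 48000000 was the fifth on 129, with 3100 and 4692 reads, and had 14 and 9 reads on CAST.

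Among the 5 fullest windows on CAST, 47780001 to 47785000 had a lower RPM on 129 in both clones. It held 1564 and 2789 reads on 129, against 2371 and 2752 on CAST, log2 ratios of -1.17 and -0.57. The excess on 129 was thus not shared by every strong contact of the stretch.

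The whole gene 6430553K19Rik, over its 8 windows, held 7683 and 10318 reads on 129, against 2538 and 3618 on CAST. Gm52257, over 2 windows, and the pseudogene Gm6912, over 2 windows, held 0 reads in all 4 columns. Deposited RPM at Gm52257 were nevertheless 327 and 349 on 129, against 119 and 156 on CAST, from reads of neighbouring windows. The 20 windows with genes are 5.78% of the stretch and held 19.1% and 20.9% of its reads on 129, against 18.3% and 18.9% on CAST. They include the 8 windows of 6430553K19Rik, which lie in the segment nearest the bait, where levels were highest. Genes and distance to the bait were not told apart in these shares.

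Single windows read on both alleles leaned to 129 as well. Of the 76 windows with 10 or more reads on each allele, 129 had the higher level in A6 and E2 alike in 41, CAST in 17, and the clones split in 18. In the rest of the chromosome within 5 Mb of the bait, 34.0% of 262 such windows were higher on 129 in both clones and 34.7% on CAST, and over chromosome 16 27.5% and 34.9% of 1107. In the stretch these shares were 53.9% and 22.4%. The median log2 ratio of the windows was 0.68 in A6 and 0.76 in E2 in the stretch, against 0.08 and -0.04 in the rest within 5 Mb. Windows of a clone share its library, so no test is given on these shares.

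In 50-kb bins, the windows read on both alleles put 129 higher in A6 and E2 alike in 20 of 32 bins, CAST in 6, and the clones split in 6, beside 36.4% of such bins within 5 Mb higher on 129 in both. limma on these bins called 0 of 32 after Benjamini-Hochberg adjustment, as it called 0.0% of the 166 bins within 5 Mb. At an unadjusted p of 0.05, 7 of the 32 passed, all higher on 129, beside 38 of the 166 in either direction. edgeR on the same reads also called 0, with 7 of the 32 and 40 of the 166 at an unadjusted p of 0.05. The median log2 difference of the stretch was 0.65, against -0.12 for bins outside it.

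Windows read on 1 allele alone were more often 129 windows. With 10 or more reads on an allele and 0 on the other, summed over the clones, 20 windows were read on 129 alone and 5 on CAST alone. In the rest within 5 Mb, these numbers were 137 and 54. They are 18.7% of the stretch's windows with 10 or more reads on 129 and 5.95% of those with 10 or more on CAST, against 30.04% and 15.3% in the rest within 5 Mb and 50.3% and 36.8% over chromosome 16. The 129 columns also held more reads in all than the CAST columns, and the part of depth in these counts was not tested. The fullest 129 windows of this kind were 48110001 to 48115000 with 2960 reads in A6 and 3639 in E2, 47730001 to 47735000 with 1604 and 2294, and 48035001 to 48040000 with 958 and 899, all with 0 reads on CAST in both clones. The fullest CAST window of this kind was 47975001 to 47980000, with 0 reads on 129 in both clones and 1221 and 870 on CAST. Next came 46740001 to 46745000 with 394 and 535 on CAST, and 46620001 to 46625000 with 246 and 244, both with 0 on 129. Whether SNPs or cutting sites differ between the strains in these windows was not tested. They held 8.85% and 9.79% of the reads of the stretch on 129, against 5.68% and 3.91% on CAST.

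The stretch was set beside 2 others of equal length. The stretch at the same distances downstream of the bait, 48410001 to 50140000, contains the third deleted interval and part of the second. It averaged 165 and 193 RPM on 129, against 206 and 231 RPM on CAST, a log2 ratio of -0.29 ± 0.04. The upstream stretch exceeded it by 0.99 ± 0.06 in log2 ratio, 1.04 in A6 and 0.95 in E2. Over windows with 10 or more reads on each allele the difference was 0.65 ± 0.20. Taking the median window of each stretch in place of the mean turned the difference to -0.28 ± 0.19, because the median downstream ratio was 1.03 ± 0.24.

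The stretch directly upstream, 44820001 to 46550000, holds Nectin3 and lies farther from the bait. It averaged 47.4 RPM in A6 and 37.6 RPM in E2 on 129, against 36.2 and 35.5 RPM on CAST, a log2 ratio of 0.24 ± 0.22, and at 0.39 and 0.08 its clones differed more. The stretch between Nectin3 and Dppa4 exceeded it by 0.47 ± 0.20, 0.33 in A6 and 0.61 in E2. Over windows with 10 or more reads on each allele the difference was 0.51 ± 0.21, and with medians it was 0.12 ± 0.14. All other windows within 5 Mb together had a log2 ratio of -0.17 ± 0.01 (SD, n = 2), which was 0.20 ± 0.06 for the median window and -0.02 ± 0.06 without windows within 150 kb of the bait gap.

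**Figure D4:**
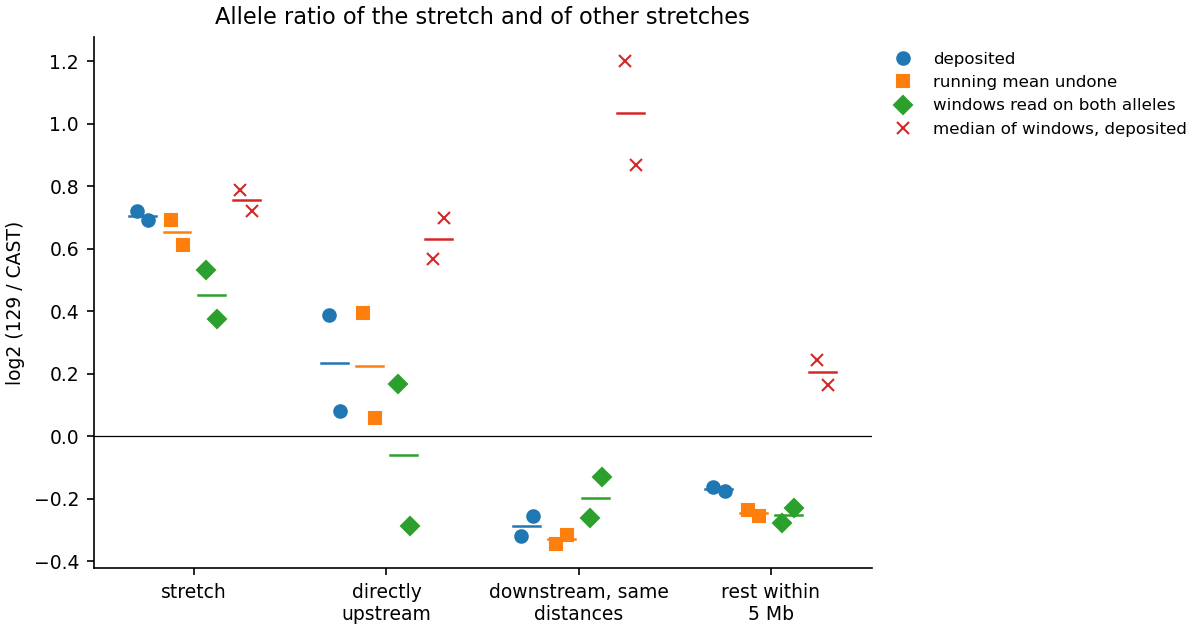
log2 ratio of 129 over CAST for the stretch, the directly upstream stretch, the downstream stretch at the same distances and the rest within 5 Mb, under 4 settings, with a bar for the mean and a point for each clone (A6 left, E2 right). The stretch lay above 0 in both clones under all 4 settings, at 0.71 deposited, with the downstream stretch at -0.29 deposited and at 1.03 for the median window.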

How the data were processed

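The deposited hybrid table holds RPM per allele column in 5-kb windows of mm10, per the file headers, for 2 clones with a 129 (svim in the table) and a CAST column each. Bowtie2 is named in the submitters' processing notes, with no version, beside the builds mm9 and mm10. The cutters were HindIII and then DpnII, per the labels' protocols. The authors' values are running means over 30 windows, 15 before, the window itself and 14 after, as the values show. Undoing them gave whole reads for 100% of values, within 0.01, and 0 windows below 0. Recovered reads numbered 1937280 (A6) and 2397572 (E2) on 129, against 1311580 and 1603247 on CAST. Bins of 50 kb within 5 Mb of the bait, over 50 kb from the gap centre, were put to limma (version 3.58.1, R 4.3.3) on log2(RPM + 5.87), with Benjamini-Hochberg adjustment. limma estimated 1 common spread for all bins. Both alleles of a clone come from 1 library, so clone was the block. edgeR 4.0.16 was run on the recovered reads. The alternatives were other pseudocounts, scalings, bin sizes, ranges and read minimums, a filter on low bins, no block, and leaving out each clone. Bins were named by a rule, which takes the 5 called bins with the highest and the 5 with the lowest limma log2, the first and last bins and the highest on each allele, and windows as the fullest on each allele or on 1 allele alone. Other steps ran in Python 3.11.15 (pandas 2.3.3, numpy 2.4.6) with scipy 1.17.1, and figures came from matplotlib 3.10.9. The stretch, gene lists and tests were chosen with earlier results of these data known. The table of the inbred libraries, with its 3 columns on another build, was not used here.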

Additional observations from a re-analysis of the deposited data

How the results depend on the processing

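The whole-stretch log2 ratio of 129 over CAST (0.71) was 0.65 without smoothing, and 0.45 and 0.40 where each allele had at least 10 or at least 30 reads. It was 0.53 without the deleted intervals in the total, 0.77 without windows within 150 kb of the bait gap and 0.75 for the median window. Here and below, the setting without the deleted intervals also has the running mean undone. Its values therefore belong beside those without smoothing. The segment from 46.55 to 47.00 Mb gave 0.90 without smoothing, 0.76 and 0.68 over windows read on both alleles, 0.77 without the deleted intervals and 0.79 for the median. The segment from 47.00 to 47.50 Mb gave 0.78 without smoothing, 0.64 and 0.62 at the 10-read and 30-read minimums, 0.82 scaled to chromosome 16, 0.65 without the deleted intervals and 1.06 for the median. The segment from 47.50 to 48.00 Mb gave 0.50 at 10 reads over 21 windows, 0.24 at 30 reads over 19 windows and 0.27 for the median. The windows that passed only the lower minimum were 47995001 and 47690001. The first had 14 and 9 reads on CAST and log2 ratios of 7.22 and 8.44. The second had 16 and 11 reads on 129, against 11 and 13 on CAST. The segment from 48.00 to 48.28 Mb gave 0.58 without smoothing, 0.31 and 0.37 over windows read on both alleles and 0.45 without the deleted intervals. It gave 0.95 without the windows near the gap and 0.96 for the median. The difference to the downstream stretch was 0.98 without smoothing, 0.65 over windows read on both alleles and 0.72 without the deleted intervals. It was 0.88 without the windows near the gap and -0.28 for the median window. The difference to the directly upstream stretch was 0.12 for the median window. For the differences, leaving out the deleted intervals or the windows near the gap and taking the median were chosen after seeing the data, as was edgeR over windows read on both alleles. The cause of these shifts was not tested.

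The share of the chromosome 16 signal was 18.7% on 129 and 12.1% on CAST in recovered reads, and 30.9% and 19.3% of the signal within 5 Mb. Bins of the stretch called higher on 129 numbered 11 undone, 9 undone and without the deleted intervals, 12 with edgeR and 7 with edgeR and TMM, each with 1 called lower. They numbered 37 of 69 bins of 25 kb and 9 of 18 bins of 100 kb. They numbered 0 over windows with 10 or more reads (limma and edgeR) and over windows with 30 or more. In a fit of all 1962 bins of chromosome 16 they also numbered 0. There 18 of the 35 bins passed unadjusted, beside 455 of the 1962. Calls in either direction over all bins tested numbered 160 of 396 at 25 kb and 43 of 100 at 100 kb. Undone they numbered 70 of 193, and undone without the deleted intervals 57 of 192. A fit without 1 clone has no spread left for the bins; without a clone the whole stretch was 0.69 to 0.72, the difference to the downstream stretch 0.95 to 1.04 and that to the directly upstream stretch 0.33 to 0.61. The fit with no replicate block (clone) gave the same 19 calls, and pairing changed no call. Named bins turned to CAST at 46.60 Mb (-0.60 undone, -0.70 without the deleted intervals, -0.72 with edgeR, -1.30 with TMM) and 47.10 Mb (-0.22, -0.27, -0.51 and -1.08, and -0.45 with limma or -0.51 with edgeR over windows read on both alleles). So did 46.80 Mb (-0.041 without the deleted intervals, -0.49 with TMM), 46.95 Mb (-0.075 with TMM) and the last bin (-0.012 and -0.46). None of these was called lower on 129.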

Other observations

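Neighbouring windows at 47515001 to 47520000 and 47520001 to 47525000 held the same read numbers in all 4 columns, 386 in A6 and 342 in E2 on 129, against 156 and 281 on CAST. On chromosome 16, 11 such neighbouring pairs with 20 or more reads were found, 1 of them in the stretch. A fragment or read counted in both windows was not tested.

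Over the 35 bins, a straight line through the deposited log2 ratio of 129 over CAST climbed away from the bait by 0.04 per Mb for A6 and 0.27 per Mb for E2. Neighbouring bins share reads, so this is a description without a test.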
